A study of Mus musculus with 10 samples.

Results

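The genes described here are those of glycolysis and of the response to low oxygen, in cultured mouse mast cells kept in IL-3 or given SCF, TGF-β or both. They were 36 genes chosen by name, as a list of glycolysis and HIF target genes, and located in the count table by their Ensembl identifiers, out of 49671 gene entries. All 36 were found. Of these, 31 had enough reads to be tested, and 5 did not: the neuronal enolase Eno2 with 25 reads in all 10 libraries together, the lactate dehydrogenase subunit gene Ldhb with 2, the HIF prolyl hydroxylase gene Egln3 with 0, the angiogenic factor gene Vegfa with 8 and the ankyrin repeat gene Ankrd37 with 9.

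The cultures were bone marrow-derived mast cells (BMMCs), mast cells that arise when mouse marrow is cultured with IL-3. All libraries came from wild-type C57BL/6 cells. The growth protocol gives 6 to 8 weeks in IL-3 at 5 ng/mL before any stimulus, while the source descriptions give IL-3 at 10 ng/mL. The groups were SCF at 100 ng/mL for 72 h (2 libraries), SCF with TGF-β at 1 ng/mL for 72 h (2 libraries), SCF with TGF-β at 10 ng/mL for 72 h (2 libraries), TGF-β alone at 1 ng/mL for 72 h (1 library), TGF-β alone at 10 ng/mL for 72 h (1 library) and IL-3 without added factor (2 libraries). The SCF concentration is stated for the SCF group, and not for the combinations. Whether IL-3 stayed in the medium during the stimulus is not given in the sources used here, nor is whether libraries of one group came from separate cultures or animals. The p-values therefore measure the spread between these libraries, which may be technical. Both groups of TGF-β alone had 1 library, so their spread was taken from that of the other groups.

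Glycolysis turns glucose, taken up through GLUT transporters, into pyruvate, which lactate dehydrogenase can reduce to lactate for export. Hypoxia-inducible factor (HIF) is a transcription factor whose α subunit is hydroxylated and destroyed when oxygen is present, and which activates many genes of glycolysis, mitochondrial turnover and collagen hydroxylation when oxygen is scarce. Growth factors that act through receptor kinases, such as KIT, the receptor of SCF on mast cells, can also raise glycolytic genes without any lack of oxygen. Oxygen was not a variable of this study.

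The libraries were full-length cDNA libraries (SmartSeq2) without molecular identifiers, so reads are not independent molecules. They held 1237382 to 2323916 reads assigned to genes (median 1708116), which were 16.4% to 26.6% of all counted reads. A level of 3 reads corresponded to 1.29 to 2.42 CPM (reads per 1e+06 reads), and levels near that range are uncertain. Replicates of one group had Pearson correlations of 0.955 to 0.968 in log CPM. All 9 listed mast cell markers, Kit, Fcer1a and Cpa3 among them, were read in every library, at a summed 34925 to 67689 CPM. Of 8 neutrophil markers, S100a8, S100a9, Ltf and Mpo were at 0 in all libraries and the sum was at most 1.70 CPM. Of 4 eosinophil markers, Epx, Prg2 and Ear1 were at 0 (sum at most 10.1 CPM). Of 7 lymphocyte markers, Cd3e, Cd3g, Trac and Ms4a1 were among those at 0 (sum at most 12.5 CPM), and Ncr1 was at 2.00 to 11.4 CPM in the 6 libraries with SCF and at 0 to 0.849 CPM in the other 4. The 8 macrophage markers summed to 14.3 to 36.3 CPM. The 4 basophil markers summed to 464.7 to 716 CPM, of which Cd200r3 made up 431 to 681 CPM. The 6 erythroid cell and platelet markers summed to 1315 to 1838 CPM, nearly all of it Itga2b, with Pf4 and Ppbp at 0 in all libraries. Loci of satellite repeats took 3.07% and 3.16% of gene counts in SCF, 3.41% to 5.48% in SCF with TGF-β, 14.5% with 1 ng/mL TGF-β alone and 7.29% with 10 ng/mL, and 5.93% and 9.39% in IL-3. The 1 ng/mL library of TGF-β alone stood apart, with the lowest share of reads in genes (16.4%) and the highest share not uniquely aligned (55.6%).

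Per length of exon, lactate dehydrogenase Ldha and aldolase Aldoa were the most abundant of the 36 transcripts. Averaged over the 10 libraries, Ldha was at 449 CPM per kb of exon, and its libraries lay between 276 and 647 CPM per kb. Aldoa averaged 421 CPM per kb, with libraries between 365 and 529.8. The next levels were pyruvate kinase Pkm at 101 CPM per kb, glyceraldehyde-3-phosphate dehydrogenase Gapdh at 88.3 and triosephosphate isomerase Tpi1 at 86.4. Their ranges over libraries overlapped, from 46.1 to 200.0 for Pkm, 47.0 to 137 for Gapdh and 62.6 to 114 for Tpi1. The collagen prolyl hydroxylase subunit P4ha1 averaged 50.1 CPM per kb and was the most abundant of the listed genes outside glycolysis. Lengths were the union of all annotated exons, retained introns included, which lowers the per-length level of a gene such as Gapdh, whose 4133 annotated bases fall into 2 blocks. Near-identical processed copies of Gapdh, Ldha, Pgk1, Aldoa, Eno1, Tpi1, Pgam1 and Pkm exist elsewhere in the genome, so reads could be split or lost and these levels are uncertain.

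**Figure D1:**
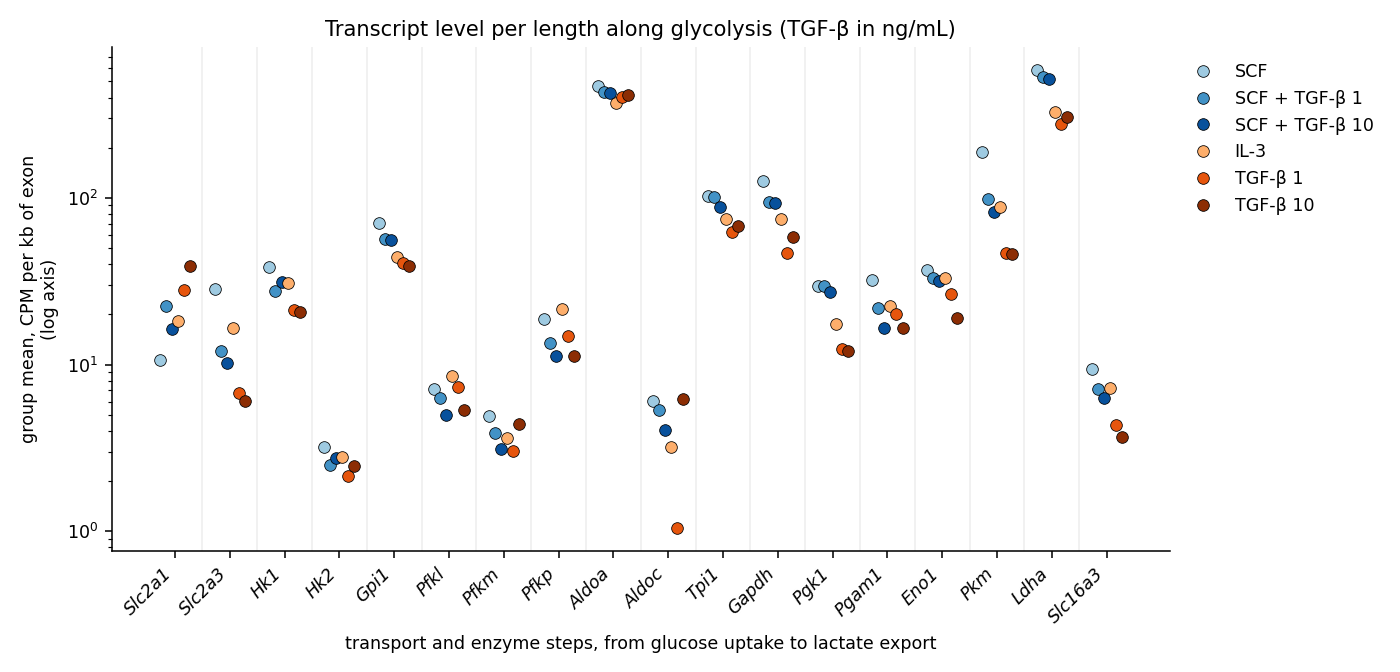
Mean transcript level of each group, in CPM per kb of exon on a log axis, for 18 transport and enzyme genes ordered from glucose uptake to lactate export; each point is the mean of 2 libraries, or the single library for TGF-β alone, with TGF-β in ng/mL. Ldha and Aldoa lie above the other genes in every group, and SCF has the lowest Slc2a1 mean and the highest Slc2a3 mean.

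Most steps of the pathway were covered by one dominant gene of each family, with shares taken from levels per kb. Ldha held 99.9% to 100% of the lactate dehydrogenase level over the 10 libraries, the rest being Ldhb. Aldoa held 97.8% to 99.7% of the aldolase level against the brain-type Aldoc, and Eno1 held 96.7% to 100% of the enolase level against Eno2. Hexokinase 1 (Hk1) held 89.3% to 94.2% against hexokinase 2 (Hk2), and P4ha1 held 85.3% to 96.5% against P4ha2. The platelet-type phosphofructokinase Pfkp held 52.6% to 68.0% of the level summed over Pfkp, the liver type Pfkl and the muscle type Pfkm. In these families the leading gene was the same one in all 10 libraries. In other families it was not: Pfkfb3 held 28.7% to 58.8% against Pfkfb4, and Bnip3 held 33.6% to 61.5% against Bnip3l, with replicates of IL-3 or SCF on either side of an even share.

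In the glucose transporter pair the leading gene per kb of exon differed between SCF cultures and all others. Slc2a1 (GLUT1, a widely expressed transporter, on mouse chr4:119108711-119137983 of GRCm38, plus strand) held 31.9% and 22.1% of the pair's level per kb in SCF cultures, 69.4% and 57.9% with SCF and TGF-β at 1 ng/mL, and 67.4% and 53.8% with SCF and TGF-β at 10 ng/mL. In IL-3 cultures its share was 54.3% and 50.2%, and with TGF-β alone it was 80.4% at 1 ng/mL and 86.7% at 10 ng/mL. Slc2a3 (GLUT3, a transporter with high affinity for glucose, on chr6:122727809-122801640, minus strand) made up the rest. Per kb it was thus the higher of this pair in both SCF libraries and in no other library, with IL-3 replicate 2 near even. This order depends on the exon lengths, 3.506 kb for Slc2a1 and 7.245 kb for Slc2a3. In CPM without division by length, Slc2a3 was also the higher in both IL-3 libraries and in replicate 2 of SCF with TGF-β at each dose. Slc2a6, a hexose transporter gene outside the 36, was above Slc2a1 and Slc2a3 per length in every library. It was at 96.7 and 103.8 CPM per kb in SCF cultures and 58.8 to 76.7 CPM per kb in the other libraries.

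**Figure D2:**
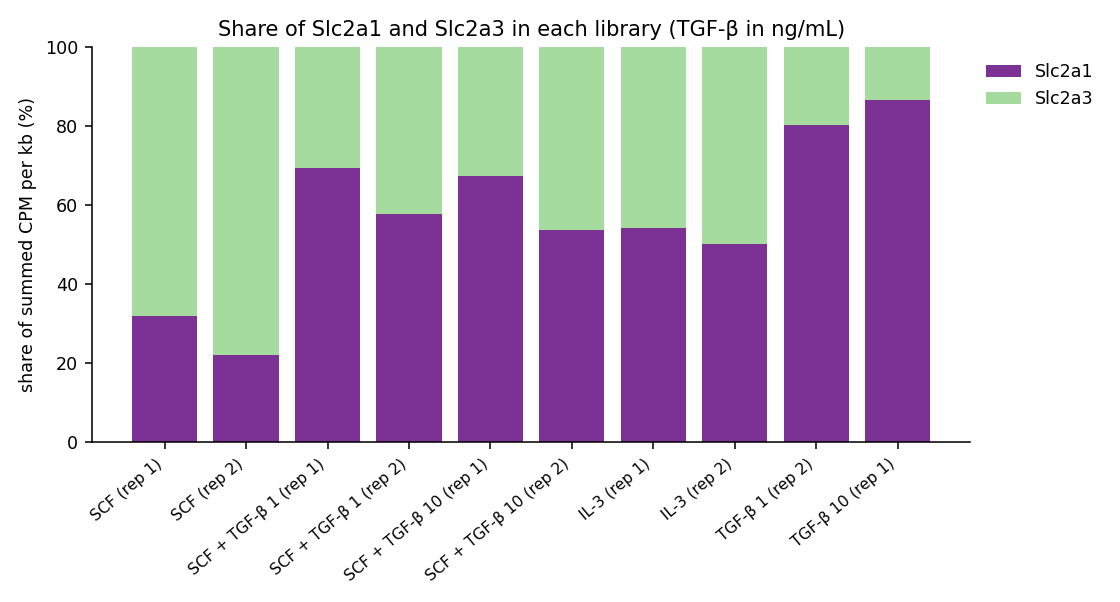
Share of Slc2a1 and of Slc2a3 in their summed level per kb of exon, in %, with 1 bar for each library, TGF-β in ng/mL. The Slc2a1 share lies between 22.1% and 31.9% in SCF libraries and above 50% in the other 8 libraries.

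In TMM-scaled CPM, the scale used from here on, Slc2a3 was at 208 and 202 CPM in SCF cultures, 92.6 and 83.1 CPM with SCF and TGF-β at 1 ng/mL, and 71.5 and 77.1 CPM with SCF and TGF-β at 10 ng/mL. It was at 116 and 124 CPM in IL-3 cultures and at 49.2 CPM (1 ng/mL) and 43.5 CPM (10 ng/mL) with TGF-β alone. Both SCF libraries were above all others, both libraries of TGF-β alone were below all others, and no group overlapped IL-3. Slc2a1 was at 47.1 and 27.7 CPM in SCF cultures, 101 and 55.2 CPM with 1 ng/mL TGF-β added and 71.5 and 43.4 CPM with 10 ng/mL added. IL-3 cultures held 66.8 and 60.4 CPM of Slc2a1, and TGF-β alone 97.6 CPM at 1 ng/mL and 138 CPM at 10 ng/mL. The SCF libraries were the lowest apart from an overlap with 10 ng/mL TGF-β, and the libraries of each SCF group lay far apart. The lactate and proton exporter MCT4 gene, Slc16a3, ranged from 19.4 to 56.7 CPM with a median of 36.3 CPM, and passed the threshold in no comparison.

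Among the enzymes that turn glucose into triose phosphates, Gpi1 showed the most regular order of groups. Gpi1, glucose-6-phosphate isomerase (chr7:34201330-34230336, minus strand), was at 441 and 473 CPM in SCF cultures, 371 and 364 CPM with 1 ng/mL TGF-β added and 387 and 336 CPM with 10 ng/mL added. Its IL-3 libraries were at 295 and 276 CPM, and its libraries of TGF-β alone at 262 CPM (1 ng/mL) and 253 CPM (10 ng/mL). SCF was above SCF with TGF-β, which was above IL-3, which was above TGF-β alone, without overlap; the 2 doses with SCF overlapped. Of its exon bases, 11.5% are shared with a non-coding gene on the opposite strand, whose reads the unstranded library cannot tell apart. Hk1, which phosphorylates glucose on entry, was at 293 and 361 CPM in SCF cultures, 229 and 241 CPM with 1 ng/mL TGF-β and 246 and 286 CPM with 10 ng/mL. It was at 272 and 253 CPM in IL-3 and at 182 and 176 CPM with TGF-β alone at 1 and 10 ng/mL. TGF-β alone gave the lowest levels of Hk1, below every other library.

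Pfkp, which catalyses the committed step of glycolysis, was at 232 and 271 CPM in SCF cultures, 163 and 198 CPM with 1 ng/mL TGF-β added and 134 and 166 CPM with 10 ng/mL added. Its IL-3 level was 278 and 296 CPM, and TGF-β alone gave 199 CPM at 1 ng/mL and 150.0 CPM at 10 ng/mL. Pfkp was highest in IL-3, above both SCF libraries, and every library with TGF-β was below every library without it. Pfkfb3 makes fructose 2,6-bisphosphate, the activator of phosphofructokinase, and was at 34.5 and 25.8 CPM in SCF cultures, 28.2 and 23.7 CPM with 1 ng/mL TGF-β and 15.6 and 20.1 CPM with 10 ng/mL. It was at 35.8 and 43.5 CPM in IL-3 and at 54.3 and 38.9 CPM with TGF-β alone at 1 and 10 ng/mL. All 4 libraries of SCF with TGF-β were below both libraries of TGF-β alone. Tpi1, which interconverts the triose phosphates, was at 254 and 314 CPM with SCF, 261 and 295 CPM with SCF and TGF-β at 1 ng/mL, and 227 and 259 CPM with SCF and 10 ng/mL. Without SCF it was at 202 and 209 CPM in IL-3, 172 CPM at 1 ng/mL TGF-β and 186 CPM at 10 ng/mL. The 6 libraries with SCF were above the 4 without it.

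The other genes of upper glycolysis passed the threshold in no comparison. Aldoa stayed between 1063 and 1542 CPM (median 1199), Pfkl between 30.4 and 63.7 CPM, Hk2 between 12.5 and 25.8 CPM and Pfkm between 8.69 and 16.5 CPM. Pfkfb4, a relative of Pfkfb3, lay between 17.2 and 34.8 CPM. Aldoc ranged from 3.39 to 29.5 CPM, and its replicates lay further apart within each SCF group than the means of the SCF groups did. A value without a call does not show that a gene stayed level.

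In lower glycolysis, from glyceraldehyde 3-phosphate to pyruvate, 5 genes were tested, and each had its highest library among those given SCF. Gapdh (chr6:125161715-125166467, minus strand) was at 472 and 567 CPM in SCF cultures, 353 and 433 CPM with 1 ng/mL TGF-β and 359.7 and 413 CPM with 10 ng/mL. It was at 328 and 291 CPM in IL-3 and at 194 and 242 CPM with TGF-β alone at 1 and 10 ng/mL. Every library with SCF was above every library without it, and TGF-β alone was lowest. Phosphoglycerate kinase Pgk1 (chrX:106187100-106203699, plus strand) was at 66.6 and 65.6 CPM in SCF cultures, 53.9 and 78.9 CPM with 1 ng/mL TGF-β and 51.8 and 71.1 CPM with 10 ng/mL. In IL-3 it was at 46.1 and 33.0 CPM, and with TGF-β alone at 28.0 CPM (1 ng/mL) and 27.2 CPM (10 ng/mL). Pgk1 again separated the libraries with SCF from those without.

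Pkm makes pyruvate and ATP in the last step of glycolysis (chr9:59656368-59679375, plus strand). Of its exon bases, 15.3% are shared with an annotated gene on the same strand, Gm49759, so reads there could be left out as ambiguous. It was at 883 and 1000.3 CPM in SCF cultures, 446 and 541 CPM with 1 ng/mL TGF-β and 391 and 434 CPM with 10 ng/mL. It was at 418 and 465 CPM in IL-3 and at 234 and 231 CPM with TGF-β alone at 1 and 10 ng/mL. The SCF libraries were above all others, SCF with TGF-β overlapped IL-3, and TGF-β alone was below all others. Phosphoglycerate mutase Pgam1 was at 61.1 and 65.6 CPM in SCF cultures, 35.4 and 51.0 CPM with 1 ng/mL TGF-β, 31.3 and 34.2 CPM with 10 ng/mL, and, without SCF, 41.5 and 47.0 CPM in IL-3, 39.9 CPM with 1 ng/mL TGF-β alone and 32.6 CPM with 10 ng/mL. Enolase Eno1 was at 177 and 219 CPM in SCF cultures, 167 and 189 CPM with 1 ng/mL TGF-β, 164 and 179 CPM with 10 ng/mL, and, without SCF, 171 and 184 CPM in IL-3, 143 CPM with 1 ng/mL TGF-β alone and 103 CPM with 10 ng/mL. Pgam1 was highest in SCF, without overlap, while Eno1 stood apart in TGF-β alone, where it was lowest. The 17 genes of upper and lower glycolysis summed to 4229 and 5028 CPM in SCF cultures, 3452 and 3811 CPM with 1 ng/mL TGF-β and 3410 and 3477 CPM with 10 ng/mL, and to 3284 and 3296 CPM in IL-3, 2794 CPM with 1 ng/mL TGF-β alone and 2759 CPM with 10 ng/mL.

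Ldha, which reduces pyruvate to lactate (chr7:46841475-46855627, plus strand), was at 1717 and 2142 CPM in SCF cultures, 1647 and 1862 CPM with 1 ng/mL TGF-β and 1611 and 1786 CPM with 10 ng/mL. It was at 1160.2 and 1008 CPM in IL-3 and at 915 and 1017 CPM with TGF-β alone at 1 and 10 ng/mL. The 6 libraries with SCF were all above the 4 without. Pdk1, the kinase that keeps pyruvate out of the mitochondrial pyruvate dehydrogenase reaction, was between 1.40 and 11.3 CPM and passed no test.

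**Figure D3:**
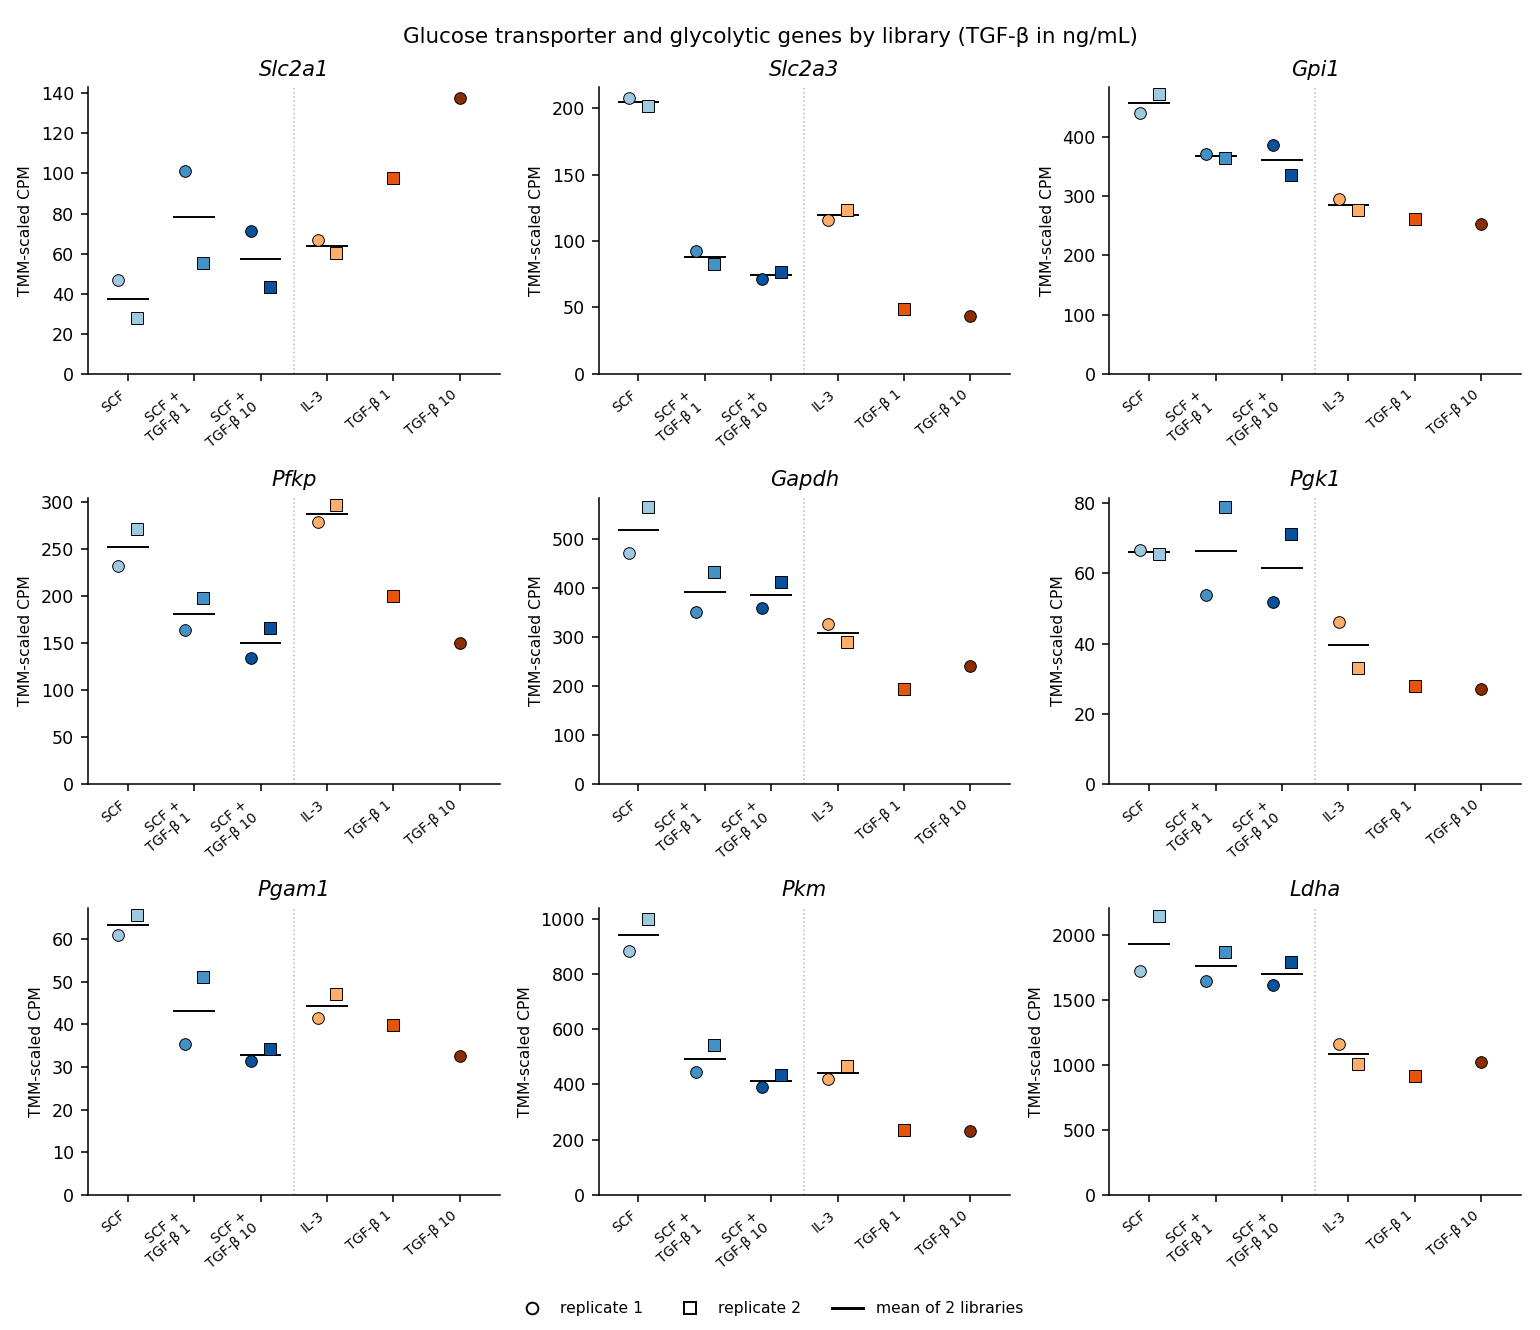
TMM-scaled CPM of 9 transporter and glycolysis genes in each library, groups along the x axis with TGF-β in ng/mL; circles are replicate 1, squares replicate 2, and lines the mean of 2 libraries. Slc2a3 and Pkm are highest in SCF and lower in SCF with TGF-β, while Ldha is at 1611 CPM or more in all 6 libraries with SCF.

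The promoters of genes that moved together were read for the letters ACGTG or GCGTG, the core letters that HIF binds, on both strands within the 250 bases before the gene's start in RefSeq (build GRCm38.p6). The letters CACGTG count once on each strand, since they hold the same core both ways. Windows were found for 33 of the 36 genes. At least 1 match lay in 39 of their 51 windows (76.5%), or in 30 of 33 genes (90.9%). Among all RefSeq promoters 38.6% of 32851 windows held a match, and among promoters of the genes tested here 56.5% of 10718 windows did. Counted by gene, the shares were 41.5% of 27025 genes and 62.5% of 8388 genes. Many listed genes were chosen as HIF targets. A match is a description, not a binding site. Of the 9 genes higher in SCF with TGF-β than in TGF-β alone, 8 had windows: 9 of their 13 windows (69.2%) held a match, 23.1% held ACGTG against 22.1% of the promoters of genes tested, and Gpi1 and Tpi1 had none. The following windows are those of 3 of these genes, shown as examples with a match, each written 5′ to 3′ on the gene's strand and ending at the base before its start, with the matching letters in capitals (on the reverse strand they read as CACGT or CACGC).
Gapdh, chr6:125165774-125166023, minus strand: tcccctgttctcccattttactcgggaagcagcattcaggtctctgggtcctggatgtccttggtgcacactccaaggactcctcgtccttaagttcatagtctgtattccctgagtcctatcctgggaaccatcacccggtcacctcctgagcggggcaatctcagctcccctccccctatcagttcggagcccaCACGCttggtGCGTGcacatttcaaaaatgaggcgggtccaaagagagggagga
Pgk1, chrX:106186850-106187099, plus strand: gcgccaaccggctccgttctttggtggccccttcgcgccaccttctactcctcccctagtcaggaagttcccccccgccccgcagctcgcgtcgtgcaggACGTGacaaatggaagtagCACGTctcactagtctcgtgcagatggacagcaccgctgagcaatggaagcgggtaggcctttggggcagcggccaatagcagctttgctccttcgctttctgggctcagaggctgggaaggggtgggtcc
Ldha, chr7:46846832-46847081, plus strand: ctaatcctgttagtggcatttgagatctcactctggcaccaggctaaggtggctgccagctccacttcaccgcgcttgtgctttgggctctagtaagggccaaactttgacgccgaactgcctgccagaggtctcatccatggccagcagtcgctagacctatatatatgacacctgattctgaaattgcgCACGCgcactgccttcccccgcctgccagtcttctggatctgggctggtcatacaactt
In Gapdh the matches start 54 and 44 bases before the gene's start, in Pgk1 150 and 131 bases, and in this Ldha window 59 bases. Ldha has a further RefSeq start upstream, whose window held 5 matches.

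Among the regulators, neither HIF nor its hydroxylase gave a call in the main edgeR fit. Hif1a, which encodes the oxygen-regulated subunit HIF-1α, ranged from 71.5 to 121 CPM with a median of 97.2 CPM. Its level in every library with TGF-β (71.5 to 99.4 CPM) was below that in every library without it (100.85 to 120.7 CPM). With the replicate number as a block, edgeR called Hif1a lower in TGF-β alone than in IL-3 (-0.63, adjusted p = 0.0214). Egln1, the prolyl hydroxylase that marks this subunit for destruction, ranged from 0.777 to 11.9 CPM, close to the level of 3 reads. HIF activity is set mainly by protein stability, which RNA levels do not measure. Egln3, itself a HIF target, had no read in any library, so a level under 1.29 to 2.42 CPM could not have been detected.

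Ndrg1, a stress and differentiation gene that is widely used as a marker of hypoxia (chr15:66929318-66969640, minus strand), had the largest changes of the list. It was at 116 and 88.9 CPM in SCF cultures, 27.4 and 20.8 CPM with 1 ng/mL TGF-β and 17.4 and 28.2 CPM with 10 ng/mL. It was at 148 and 149 CPM in IL-3 and at 158 CPM (1 ng/mL) and 104 CPM (10 ng/mL) with TGF-β alone. The 4 libraries of SCF with TGF-β were far below the other 6, and with TGF-β alone one library lay above IL-3 and the other within the SCF range. Of its exon bases, 8.43% are shared with non-coding genes on the opposite strand.

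The collagen prolyl 4-hydroxylase subunits, which modify collagen in the endoplasmic reticulum, followed a related order. P4ha1 (chr10:59323296-59373304, plus strand) was at 233 and 227 CPM in SCF cultures, 123 and 129 CPM with 1 ng/mL TGF-β and 139.9 and 129.8 CPM with 10 ng/mL. It was at 230.1 and 329 CPM in IL-3 and at 254 and 267 CPM with TGF-β alone at 1 and 10 ng/mL. As with Ndrg1, the 4 libraries of SCF with TGF-β were below the other 6. P4ha2 (chr11:54100095-54131665, plus strand) was at 45.1 and 59.2 CPM in SCF cultures, 10.5 and 22.0 CPM with 1 ng/mL TGF-β and 17.4 and 28.2 CPM with 10 ng/mL. In IL-3 it was at 24.9 and 35.1 CPM, and with TGF-β alone at 24.6 CPM (1 ng/mL) and 14.8 CPM (10 ng/mL). P4ha2 was highest in SCF. Its IL-3 libraries were above SCF with 1 ng/mL TGF-β and, narrowly, above TGF-β alone, and SCF with 10 ng/mL TGF-β overlapped them. Their windows before the start are shown because both genes fell together with TGF-β in SCF cultures.
P4ha1, chr10:59323046-59323295, plus strand: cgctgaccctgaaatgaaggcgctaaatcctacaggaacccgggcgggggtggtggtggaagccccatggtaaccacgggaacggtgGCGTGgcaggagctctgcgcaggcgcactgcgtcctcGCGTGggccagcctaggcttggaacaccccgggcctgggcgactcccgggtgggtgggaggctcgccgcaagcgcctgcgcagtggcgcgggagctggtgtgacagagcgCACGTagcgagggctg
P4ha2, chr11:54100674-54100923, plus strand: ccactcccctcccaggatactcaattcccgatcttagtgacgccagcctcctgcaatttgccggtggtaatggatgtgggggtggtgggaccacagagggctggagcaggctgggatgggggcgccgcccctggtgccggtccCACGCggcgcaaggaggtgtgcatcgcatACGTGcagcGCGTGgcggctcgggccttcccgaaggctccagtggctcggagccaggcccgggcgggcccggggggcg
The matches start 163, 126 and 16 bases before the start in P4ha1, and 107, 78 and 69 bases before it in P4ha2.

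Bnip3l encodes a receptor for the removal of mitochondria. It was at 33.5 and 29.6 CPM in SCF cultures, 41.7 and 45.7 CPM with 1 ng/mL TGF-β and 56.8 and 47.8 CPM with 10 ng/mL. It was at 36.3 and 49.8 CPM in IL-3 and at 55.2 and 62.9 CPM with TGF-β alone at 1 and 10 ng/mL. The SCF libraries were the lowest. Mxi1, an antagonist of MYC, was at 4.00 and 0 CPM in SCF cultures, 4.63 and 2.97 CPM with 1 ng/mL TGF-β and 3.58 and 4.34 CPM with 10 ng/mL. It was at 0.518 and 6.32 CPM in IL-3 and at 18.7 and 13.2 CPM with TGF-β alone at 1 and 10 ng/mL. Both libraries of TGF-β alone were above all others, at levels that rest on few reads. The mitophagy receptor gene Bnip3 ranged from 16.4 to 38.6 CPM, the mTORC1 inhibitor gene Ddit4 from 19.6 to 41.7 CPM and the histone demethylase gene Kdm3a from 35.9 to 85.5 CPM, and none of these 3 passed the threshold in any comparison. For Bnip3, 22.2% of the exon bases are shared with an antisense gene.

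**Figure D4:**
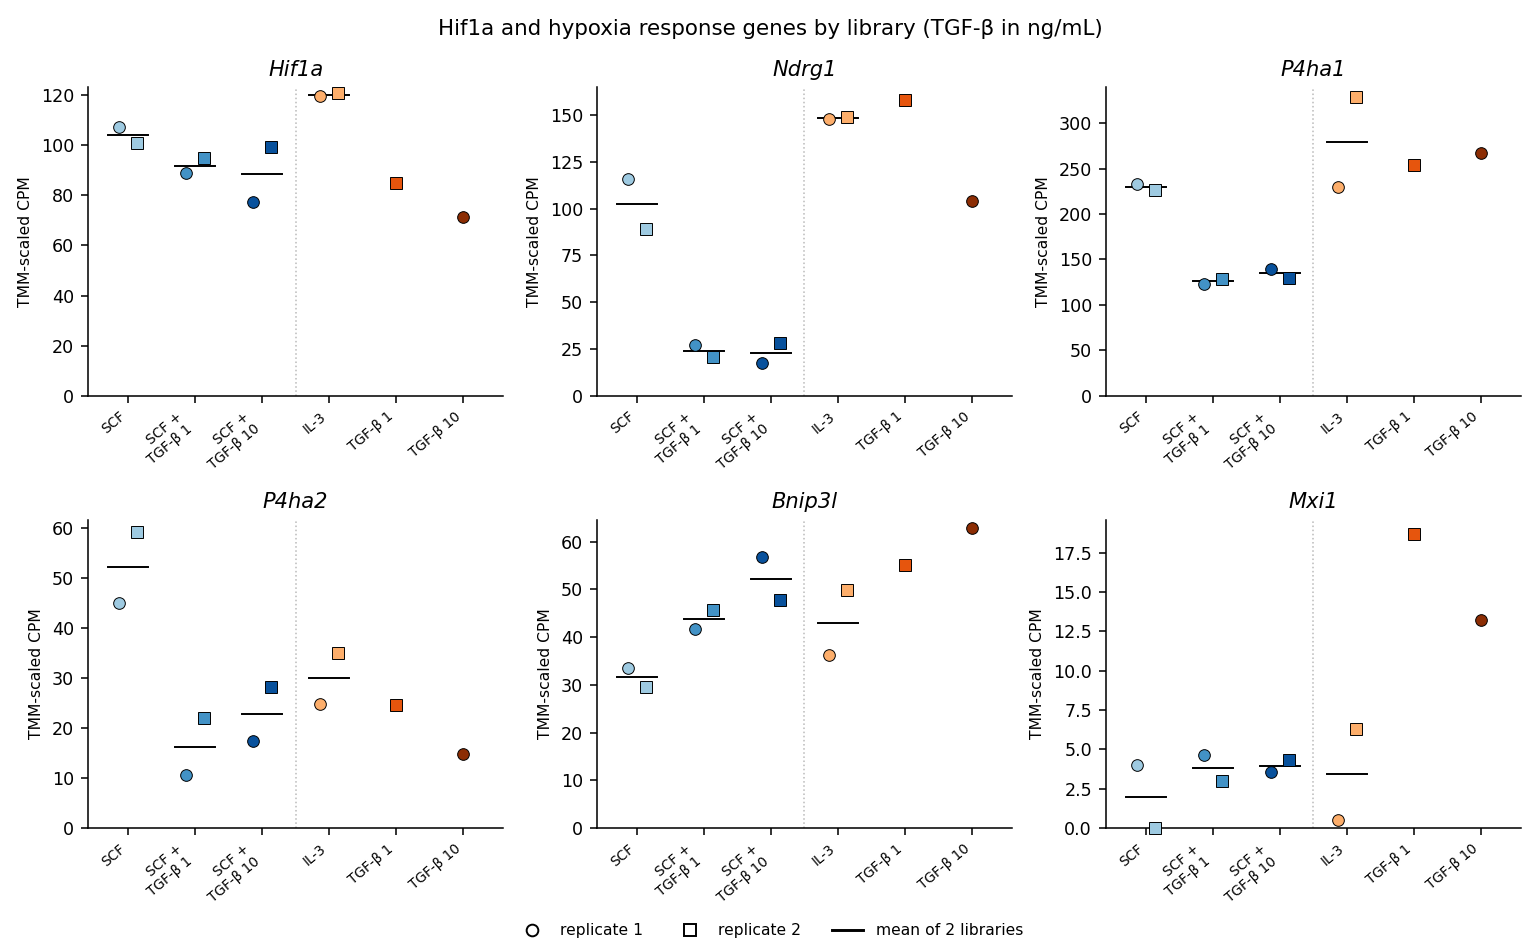
TMM-scaled CPM of Hif1a and 5 hypoxia response genes in each library, groups along the x axis with TGF-β in ng/mL; circles are replicate 1, squares replicate 2, and lines the mean of 2 libraries. Ndrg1 and P4ha1 are lowest in the 4 libraries of SCF with TGF-β. Hif1a lies between 71.5 and 121 CPM, with every library with TGF-β below every library without it.

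The first comparison asked what SCF did relative to IL-3 culture. The transporter Slc2a3 and 4 enzymes of glycolysis were higher in SCF cultures. None of the listed genes was called lower in the main edgeR fit, which had no replicate block. With the replicate number as a block, edgeR called Slc2a1 (-0.77, adjusted p = 0.0141) and Ndrg1 (-0.53, 0.0429) lower. Pkm rose by 1.09 ± 0.14 on the log2 scale (± standard error, edgeR adjusted p = 0.000141), with means of 942 ± 82.9 CPM in SCF and 441 ± 33.7 CPM in IL-3 (SD, n = 2 each). Ldha rose by 0.83 ± 0.14 (adjusted p = 0.00128), Slc2a3 by 0.78 ± 0.15 (adjusted p = 0.00333), Gapdh by 0.75 ± 0.15 (adjusted p = 0.00556) and Gpi1 by 0.68 ± 0.13 (adjusted p = 0.00481). These 5 of 31 tested members were 16.1%, where 9.17% of all genes tested were called in either direction (5.71% higher and 3.46% lower). In edgeR, 14 members had an unadjusted p under 0.05, as did 2623 of the 11247 genes tested. The median log2 change was 0.26 over the 31 members and -0.02 over all genes tested. All 5 lower glycolysis genes had positive values (median 0.72), of which 2 were called, and 6 of 8 HIF targets outside glycolysis had negative values (median -0.35), of which none was called. In bulk RNA, a smaller share of cells of one type and less RNA per cell cannot be told apart.

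Cell cycle genes moved with the same comparison: 17 of 23 were higher with SCF, and their summed level was 1998 and 2415 CPM in SCF cultures and 1287 and 768 CPM in IL-3. The 9 mast cell markers summed to 67689 and 59962 CPM in SCF cultures and 44856 and 43638 CPM in IL-3, with 3 of 9 called higher and 1 lower. The basophil marker Mcpt8 (2.80 ± 0.84, edgeR adjusted p = 0.0449) and the heat shock gene Hspa8 (0.46 ± 0.14, 0.0470) were higher, and the basophil marker Prss34 (-2.10 ± 0.58, 0.0307) was lower. Their part in the glycolysis values was not tested. Without IL-3 replicate 2, 3 members were called, and Gpi1 (0.63, adjusted p = 0.0704) and Gapdh (0.66, adjusted p = 0.0877) missed the threshold, as Gapdh did without SCF replicate 2 (adjusted p = 0.0773). A smaller share of all genes was also called when any library of either group was left out.

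Next, TGF-β at 1 ng/mL added to SCF was compared with SCF. The transporter Slc2a3, Pkm and the HIF targets Ndrg1, P4ha1 and P4ha2 fell, while Slc2a1 rose. Ndrg1 changed by -2.07 ± 0.22 on the log2 scale (edgeR adjusted p = 2.54e-05), with means of 24.1 ± 4.67 CPM with TGF-β and 102 ± 18.9 CPM in SCF (SD, n = 2 each). P4ha2 changed by -1.73 ± 0.32 (adjusted p = 0.00356), P4ha1 by -0.87 ± 0.17 (adjusted p = 0.00414), Slc2a3 by -1.22 ± 0.15 (adjusted p = 7.65e-05) and Pkm by -0.93 ± 0.14 (adjusted p = 0.000543). Slc2a1 changed in the other direction, by 1.07 ± 0.29 (adjusted p = 0.0443). The 6 called members were 19.4% of 31, against 4.64% of all genes tested (1.89% higher and 2.75% lower). The median was -0.22 over the members and 0.01 over all genes tested, and all 16 tested genes of upper and lower glycolysis had negative values.

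With the replicate number as a block, edgeR gave Slc2a1 an adjusted p of 0.000960. In the main fit the Slc2a1 call was close to the threshold. It was lost without SCF replicate 2 (0.76, adjusted p = 0.294), without replicate 1 of SCF plus 1 ng/mL TGF-β (0.55, adjusted p = 0.456), without either IL-3 library (adjusted p = 0.0666 and 0.0740), in DESeq2 (adjusted p = 0.0929), in limma-voom (0.0596), with a filter of 10 CPM (0.0502) and without the libraries of TGF-β alone (0.0515). P4ha2 missed the threshold without replicate 1 of SCF plus 1 ng/mL TGF-β (-1.22, adjusted p = 0.0649). Slc2a3, Pkm, Ndrg1 and P4ha1 stayed past it in every fit tried.

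At 10 ng/mL TGF-β with SCF, compared with SCF, the falls included further glycolysis enzymes. Ndrg1 changed by -2.19 ± 0.23 on the log2 scale (edgeR adjusted p = 7.20e-06), with means of 22.8 ± 7.64 CPM with TGF-β and 102 ± 18.9 CPM in SCF (SD, n = 2 each). Slc2a3 changed by -1.46 ± 0.15 (adjusted p = 7.20e-06) and Pkm by -1.19 ± 0.14 (adjusted p = 3.29e-05). Among the others, Pgam1 changed by -0.95 ± 0.21 (adjusted p = 0.00884), Pfkp by -0.75 ± 0.16 (adjusted p = 0.00580), P4ha1 by -0.77 ± 0.17 (adjusted p = 0.00645) and P4ha2 by -1.20 ± 0.31 (adjusted p = 0.0203). Bnip3l was higher, by 0.72 ± 0.22 (adjusted p = 0.0461). In all, 8 of 31 members were called (25.8%), 1 higher and 7 lower, against 8.37% of all genes tested (3.78% higher and 4.59% lower). The median was -0.29 over the members and 0.00 over all genes. Ldha, the most abundant of them, had -0.18 and was not called at this dose.

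Here fewer members, and a smaller share of all genes, were called without SCF replicate 2 and without replicate 1 of SCF plus 10 ng/mL TGF-β. Pfkp (adjusted p = 0.0628 and 0.113), Pgam1 (0.0552 and 0.100) and P4ha2 (0.152 and 0.229) missed the threshold in those fits. P4ha1 missed it without replicate 2 of that group (adjusted p = 0.0672). Bnip3l missed it when any library of either group was left out (adjusted p = 0.0804 to 0.298), in limma-voom (adjusted p = 0.0522) and in DESeq2 (adjusted p = 0.310), where Pgam1 (0.0965) and P4ha2 (0.134) missed it too.

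Both doses share the SCF libraries, so their values stand side by side and are not independent. In the sum over cell cycle genes, TGF-β with SCF gave 3220 and 4089 CPM at 1 ng/mL and 3534 and 4121 CPM at 10 ng/mL, with 8 of 23 and 14 of 23 genes called higher than in SCF. The mast cell markers summed to 46916 and 40286 CPM at 1 ng/mL and 41286 and 38363 CPM at 10 ng/mL, with 4 of 9 and 5 of 9 called lower than in SCF. Of 4 dendritic cell markers, Itgax alone was tested and was called higher at both doses, at 7.58 and 10.1 CPM with 1 ng/mL and 16.5 and 7.06 CPM with 10 ng/mL, against 0.501 and 0 CPM in SCF. Siglech was at 0 in every library, Flt3 in all but an IL-3 library, and Zbtb46 at 0 to 2.71 CPM. The immediate early gene Dusp1 was lower at both doses (-1.72 ± 0.30 at 1 ng/mL and -1.51 ± 0.29 at 10 ng/mL, edgeR adjusted p = 0.00185 and 0.00270), and the macrophage marker Lyz2 was lower at 10 ng/mL (-3.54 ± 0.64, 0.00156). Their part in the falls of the listed genes was not tested. Directly between the doses, 10 ng/mL against 1 ng/mL, no member was called by edgeR, DESeq2 or limma-voom. In edgeR, 1 of 31 (Pfkfb3, -0.56) had an unadjusted p under 0.05, as did 313 of all 11247 genes tested. Of all genes tested, 0.0178% were called between the doses (0.00889% higher and 0.00889% lower). The members' log2 changes ran from -0.56 to 0.53, with a median of -0.05.

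TGF-β alone, both doses averaged, was then compared with IL-3. Slc2a3, Pkm and Pfkp were lower, and no member was called higher in the main edgeR fit. With the replicate number as a block, edgeR called Slc2a1 higher (0.89, adjusted p = 0.00367). Slc2a3 changed by -1.37 ± 0.17 on the log2 scale (edgeR adjusted p = 0.000177), Pkm by -0.92 ± 0.15 (adjusted p = 0.00128) and Pfkp by -0.73 ± 0.16 (adjusted p = 0.0157). In this comparison 3 of 31 members were called (9.68%), against 3.48% of all genes tested (1.36% higher and 2.12% lower), and the medians were -0.28 over members and -0.02 over all genes. These 3 genes were also among the 7 called lower with 10 ng/mL TGF-β over SCF, 3 of 3 in one list and 3 of 7 in the other. The comparisons set different libraries against each other, but both took each gene's spread from the same fit. The lists are therefore not independent, and their overlap was not set against that over all genes. With 1 ng/mL TGF-β over SCF, 2 of these 3 (Slc2a3 and Pkm) were among the 5 called lower. Ndrg1, P4ha1 and P4ha2 had -0.21, -0.10 and -0.63 without SCF and were not called. Leaving out the library at 10 ng/mL gave Pfkp -0.53 (adjusted p = 0.276), and Pfkp also missed the threshold without either IL-3 library (adjusted p = 0.0654 and 0.0850). The mast cell markers summed to 36485 and 34925 CPM with TGF-β alone at 1 and 10 ng/mL and to 44856 and 43638 CPM in IL-3, with Cpa3, Fcer1a, Srgn and Hdc called lower and Tpsb2 higher. Itgax was called higher, at 17.8 CPM with 1 ng/mL and 38.9 CPM with 10 ng/mL, against 1.04 and 0 CPM in IL-3. The cell cycle genes summed to 947 CPM at 1 ng/mL and 1589 CPM at 10 ng/mL, and to 1287 and 768 CPM in IL-3. Their part was not tested.

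SCF together with TGF-β was also compared with TGF-β alone, each averaged over both doses. The transporter Slc2a3 and 8 enzymes of glycolysis, from Hk1 to Ldha, were higher with SCF, while Ndrg1, P4ha1, Mxi1, Pfkfb3 and Slc2a1 were lower. Among the higher genes, Pgk1 rose by 1.20 ± 0.24 (edgeR adjusted p = 0.00161), Pkm by 0.96 ± 0.13 (adjusted p = 6.92e-05), Gapdh by 0.85 ± 0.14 (adjusted p = 0.000338), Ldha by 0.84 ± 0.12 (adjusted p = 0.000124) and Slc2a3 by 0.80 ± 0.16 (adjusted p = 0.00153). Smaller rises were those of Tpi1 (0.54 ± 0.14, adjusted p = 0.00834), Eno1 (0.52 ± 0.14, adjusted p = 0.0130), Gpi1 (0.50 ± 0.12, adjusted p = 0.00613) and Hk1 (0.48 ± 0.14, adjusted p = 0.0153). Ndrg1 changed by -2.45 ± 0.19 (adjusted p = 2.98e-07), the largest change of any member in any of the comparisons. The further falls were Mxi1 (-1.98 ± 0.59, adjusted p = 0.0216), Pfkfb3 (-1.09 ± 0.22, adjusted p = 0.00159), P4ha1 and Slc2a1 (-0.77 ± 0.24, adjusted p = 0.0241). P4ha1 averaged 130.4 CPM with SCF and TGF-β and 261 CPM with TGF-β alone (SE of the log2 change 0.14, adjusted p = 8.57e-05). The libraries of Slc2a1 overlapped.

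In this comparison 14 of 31 members were called (45.2%), 9 higher and 5 lower, where 24.7% of all genes tested were called (13.3% higher and 11.4% lower). The medians were 0.08 over members and -0.01 over all genes, and 4 of 5 lower glycolysis genes were called higher. SCF against IL-3 sets other libraries against each other, and its 5 genes called higher were all among the 9 called higher here, 5 of 5 in one list and 5 of 9 in the other. Both lists took each gene's spread from the same fit, so they are not independent. Their overlap was not set against that over all genes. The 23 cell cycle genes were all called higher, and their sum in TGF-β alone was 947 CPM at 1 ng/mL and 1589 CPM at 10 ng/mL. Of 9 mast cell markers, Cpa3 and Srgn were higher and Kit was lower (-0.34 ± 0.10, edgeR adjusted p = 0.0216). The basophil markers Mcpt8 and Cd200r3, the lymphocyte list's Ncr1 and the heat shock genes Hspa8 and Hsp90aa1 were also higher, and Itgax, the eosinophil marker Siglecf and the immediate early gene Junb lower. Their part was not tested. With ribosomal RNA and satellite loci left out of the counts, 0 of the 37 calls of listed genes over all comparisons were lost.

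This comparison rested on 1 library of TGF-β alone at each dose. When that library was left out, SCF with TGF-β at the same dose left the comparison too. Without the 10 ng/mL library it thus set SCF with 1 ng/mL TGF-β against 1 ng/mL alone. Without the 1 ng/mL library it compared the 10 ng/mL groups only. The library and the dose left out cannot be told apart, and a smaller share of all genes was called in both fits. Without the 10 ng/mL library, 9 members were called and Slc2a1 (-0.29, adjusted p = 0.622), Hk1 (adjusted p = 0.219), Gpi1 (0.0711), Eno1 (0.31, adjusted p = 0.330) and Mxi1 (0.0933) missed the threshold. Without the 1 ng/mL library, Hk1 (adjusted p = 0.0637), Gpi1 (0.0724), Tpi1 (0.221) and Mxi1 (0.248) missed it, and Slc2a1 was at -1.24 (adjusted p = 0.0265). Leaving out replicate 2 of SCF plus 1 ng/mL TGF-β cost the Slc2a1 call (adjusted p = 0.0604), and leaving out replicate 2 of SCF with 10 ng/mL cost those of Slc2a1 (0.0730) and Hk1 (0.0516). In DESeq2, Slc2a1 (adjusted p = 0.0686) and Mxi1 (0.113) were not called. Slc2a3, Pkm, Gapdh, Pgk1, Ldha, Pfkfb3, Ndrg1 and P4ha1 stayed past the threshold in every fit tried.

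**Figure D5:**
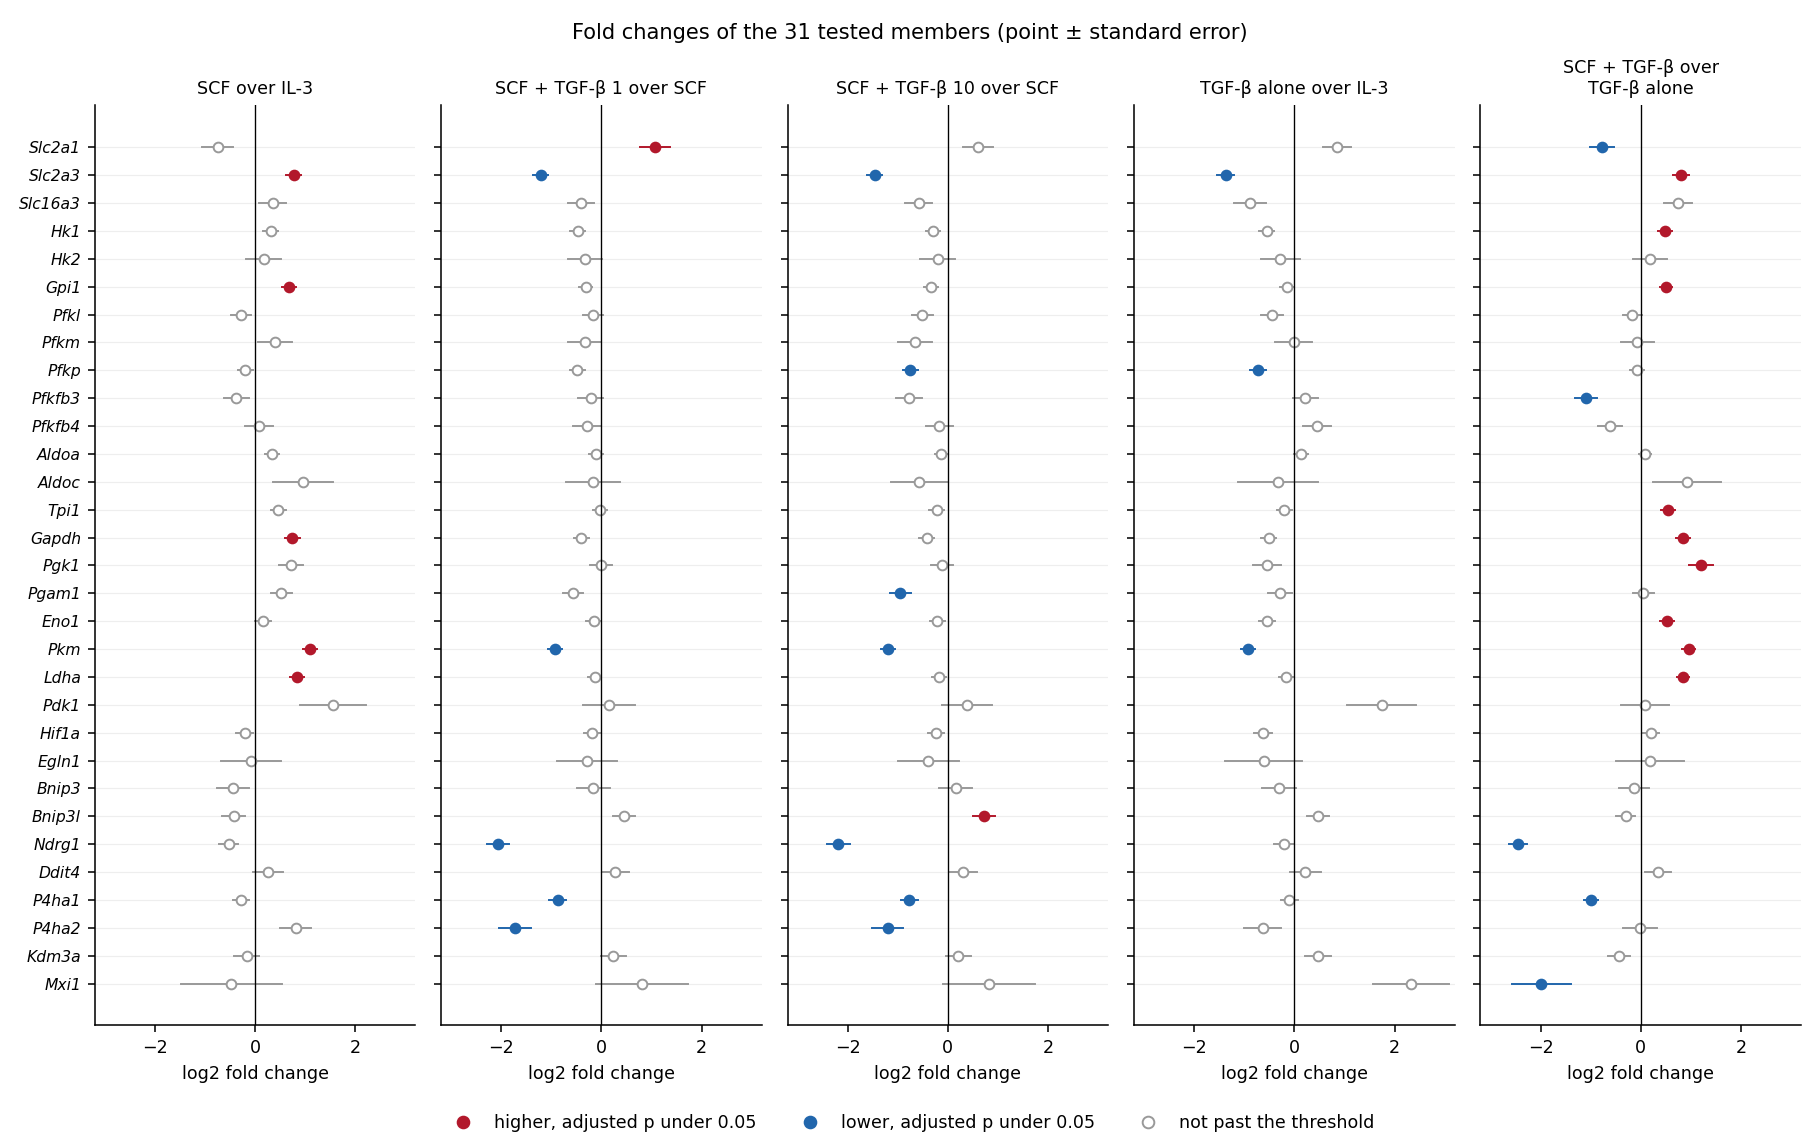
Log2 fold change (point) with its standard error (line) of the 31 tested genes in 5 comparisons, filled in red where higher and in blue where lower at an adjusted p under 0.05, open where not. Pkm and Slc2a3 are called in all 5 comparisons, higher with SCF and lower with TGF-β, and Ndrg1 and P4ha1 are called in the 3 that have SCF with TGF-β on one side.

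Whether the change with TGF-β depended on SCF was tested as an interaction, the log2 change with SCF minus the change without it. Of 31 members, 1 was called (3.23%), against 0.293% of all genes tested (0.116% higher and 0.178% lower). This was Ndrg1, at -1.92 ± 0.27 (edgeR adjusted p = 0.00686): with SCF it changed by -2.07 at 1 ng/mL and -2.19 at 10 ng/mL, and without SCF by -0.21 on average. The call was lost without IL-3 replicate 1 (-1.90) and without the 1 ng/mL library of TGF-β alone (-1.68). The value of -1.68 is for 10 ng/mL only, since SCF with 1 ng/mL TGF-β then left the comparison too. For P4ha1 the interaction was -0.72 ± 0.22 (adjusted p = 0.254), and a difference between its changes with and without SCF was not shown. Slc2a3 (0.03 ± 0.21) and Pkm (-0.14 ± 0.19) had interactions close to 0 with adjusted p of 0.986 and 0.882, which does not show that the changes were equal.

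Neighbouring pathways were read from lists of genes outside the 36. For SCF over IL-3, edgeR called 9 of the 93 genes tested in the 5 lists, close to the 9.17% of all genes tested. In SCF against IL-3, 3 of 29 tested genes of pyruvate entry and the citric acid cycle were higher, citrate synthase Cs (0.71 ± 0.15, adjusted p = 0.00800), malate dehydrogenase Mdh2 (0.54 ± 0.16, 0.0398) and the pyruvate dehydrogenase subunit Pdha1 (0.63 ± 0.17, 0.0299), and none was lower. Of 9 pentose phosphate genes, transketolase Tkt (0.63 ± 0.14, adjusted p = 0.00947) and lactonase Pgls (0.59 ± 0.15, 0.0238) were higher. Among 24 other genes of the HIF pathway, none was higher and 2 were lower, the circadian and hypoxia-responsive repressor Bhlhe40 (-0.79 ± 0.14, adjusted p = 0.00202) and the nuclear receptor Rora (-2.30 ± 0.32, 0.000269). Of 18 regulators around MYC and mTORC1, Txnip, which restrains glucose uptake, was lower (-1.31 ± 0.27, adjusted p = 0.00589). The hexose transporter gene Slc2a6 was the only call among 13 tested isozymes and side enzymes (0.47 ± 0.14, adjusted p = 0.0388). Without SCF replicate 2, Mdh2 was at 0.33 (adjusted p = 0.378). Apart from Rora, each of these calls was lost when at least 1 library was left out, IL-3 replicate 2 in every case.

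When TGF-β was added to SCF, none of the 24 other HIF pathway genes was called at either dose by edgeR, DESeq2 or limma-voom. Of these, 8 at 1 ng/mL and 5 at 10 ng/mL had an unadjusted edgeR p under 0.05. Of all 11247 genes tested, 1822 and 2305 did. At 1 ng/mL the calls in the neighbouring lists were pyruvate carboxylase Pcx (0.63 ± 0.15, adjusted p = 0.0215), Slc2a6 (-0.56 ± 0.14, 0.0210) and the mTOR inhibitor gene Deptor (-1.87 ± 0.50, 0.0387), and each was lost without any one of the 4 libraries compared. At 10 ng/mL they were Slc2a6 (-0.73 ± 0.14, adjusted p = 0.00202), past the threshold in every fit tried, and glucose-6-phosphate dehydrogenase G6pdx (-0.52 ± 0.15, 0.0462), lost without any of the 8 libraries of SCF or IL-3 groups. TGF-β alone against IL-3 and the interaction had no call in any of these 5 lists by the same 3 tools. Of the 93 genes tested in them, 15 for TGF-β alone and 13 for the interaction had an unadjusted edgeR p under 0.05. Of all 11247 genes tested, 1757 and 1029 did. By the adjusted p, 3.48% and 0.293% of all genes tested were called in these 2 comparisons. EdgeR called 3 of the 93 with 1 ng/mL TGF-β added to SCF, against 4.64% of all genes tested. At 10 ng/mL it called 2, against 8.37%.

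SCF with TGF-β, set against TGF-β alone, gave more calls in these lists, as it did over all genes. Here too, a fit without a library of TGF-β alone compared the groups of the other dose only. EdgeR called 22 of the 93 genes tested in them, close to the 24.7% of all genes tested. Of 29 pyruvate entry and citric acid cycle genes, 4 were higher and none lower, led by isocitrate dehydrogenase Idh3a (0.99 ± 0.20, adjusted p = 0.00208), which was 0.54 (adjusted p = 0.242) without the 1 ng/mL library of TGF-β alone. Of 9 pentose phosphate genes, 3 were higher, led by Pgls (0.85 ± 0.14, adjusted p = 0.000415). Of 24 other HIF pathway genes, 3 were higher and 4 lower. The higher ones included the transferrin receptor Tfrc (2.10 ± 0.36, adjusted p = 0.000428) and the collagen lysyl hydroxylase Plod2. Plod2 was at 6.32 and 8.31 CPM and 8.04 and 5.97 CPM with SCF at 1 and 10 ng/mL TGF-β, against 0 CPM and 0.777 CPM with TGF-β alone, which was too few reads for a fold change. Tfrc was at 9.33 CPM with 1 ng/mL TGF-β alone and 42.0 CPM with 10 ng/mL, and its log2 change was 1.02 (adjusted p = 0.141) without the 1 ng/mL library and 3.18 (0.00169) without the 10 ng/mL library. Plod2 missed the threshold without the 1 ng/mL library (adjusted p = 0.193). The lower ones were Rora (-2.92 ± 0.31, adjusted p = 7.44e-06), the HIF ubiquitin ligase gene Vhl (-0.97 ± 0.24, 0.00717), the HIF partner Arnt (-0.77 ± 0.21, 0.0136) and Bhlhe40 (-0.48 ± 0.12, 0.00719), and of these Rora alone was called in every fit tried. Without the 1 ng/mL library the adjusted p was 0.0576 for Vhl, 0.178 for Arnt and 0.271 for Bhlhe40, whose log2 change was then -0.31. Of 13 isozymes and side enzymes, the phosphoglucomutase Pgm2 (0.62 ± 0.19, adjusted p = 0.0257) and the lactate transporter Slc16a1 were higher and the D-lactate dehydrogenase Ldhd (-1.74 ± 0.52, 0.0221) was lower, and without that library each missed the threshold (adjusted p = 0.389 with Pgm2 at 0.40, 0.172 and 0.118).

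Among the MYC and mTORC1 regulators, Myc itself was higher with SCF (1.02 ± 0.16, edgeR adjusted p = 0.000211), at 189.9 and 181 CPM with 1 ng/mL TGF-β and 199.8 and 191 CPM with 10 ng/mL, against 92.5 CPM and 94.8 CPM with TGF-β alone at those doses. Txnip was lower (-1.94 ± 0.22, adjusted p = 1.12e-05), at 169.7 and 88.4 CPM and 159 and 103 CPM with SCF at 1 and 10 ng/mL TGF-β, against 479 CPM and 528 CPM with TGF-β alone. Myc was above, and Txnip below, TGF-β alone in all 4 libraries with SCF. Sesn1, a stress-induced inhibitor of mTORC1 signalling, was also lower (-1.15 ± 0.20, adjusted p = 0.000645). These 3 calls held in every fit tried. The other 2 calls of the list were the mTORC1 activator Rheb (0.82 ± 0.18, adjusted p = 0.00287) and the mTORC1 inhibitor Tsc1 (-0.64 ± 0.23, 0.0493), which missed the threshold without the 1 ng/mL library (adjusted p = 0.0790 and 0.497, with Tsc1 at -0.40). Tsc1 missed the threshold in 13 of 17 alternative fits, among them DESeq2 (adjusted p = 0.262) and edgeR without a filter (0.0986). Over the 5 neighbouring lists, DESeq2 called 14 genes in this comparison where edgeR called 22, and 3 where edgeR called 9 in SCF against IL-3. With TGF-β added to SCF it called 0 where edgeR called 3 at 1 ng/mL, and 1 where edgeR called 2 at 10 ng/mL.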

How the data were processed

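RNA was measured in 10 libraries of 6 groups. Per the submitters' processing notes, the tools were STAR, HTSeq and DESeq2 and the build GRCm38 (mm10). Their versions, settings and roles are not given in these sources. The table deposited by the authors holds raw counts of reads per gene, whole numbers without normalization. In the table, 5 further entries named no gene and were left out: reads not uniquely aligned (37.2% to 55.6% of all counted reads), without a feature (26.0% to 33.6%), or ambiguous (2.04% to 2.85%) made up nearly all of the rest. No column of sample values was left unused. The library kit does not mark strand.

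Counts were fitted in R 4.3.3 by the quasi-likelihood F test of edgeR 4.0.16 after filterByExpr and TMM scaling. The model held 1 mean for each of 6 groups and used all 10 libraries, with 4 residual degrees of freedom and a common biological coefficient of variation of 0.126. The filter kept 11247 genes. Over these, p-values were Benjamini-Hochberg adjusted within each of 7 comparisons, with a threshold of 0.05. Standard errors are the log2 fold change divided by the square root of F. The scripts were tested on simulated data. Counts per kb used the union of exons in GENCODE vM21 on GRCm38; promoter sequences are from RefSeq (GRCm38.p6).

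Fold changes are given for each listed gene where it passed the threshold, and by the same rule for genes of the neighbouring pathway lists. The members and lists were chosen with earlier results of these data known. Of the list symbols, Ero1a was not in the table, and some others are not reported here. The alternatives tried were size factors from DESeq2, the Wald test of DESeq2 1.42.0 (adjusted p given as NA stayed NA), limma-voom (limma 3.58.1), no filter, a filter of 10 CPM in 2 libraries, no TGF-β alone libraries, the replicate number as a block, no loci of ribosomal RNA (13.7% to 18.3% of gene counts) or satellite repeats (3.07% to 14.5%), and each library left out in turn. Where a library of TGF-β alone was left out, averages over doses used the other dose only, with and without SCF. The alternatives for genes of the neighbouring lists were chosen after seeing the data. The detection level of 3 reads covers counting error only.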

Additional observations from a re-analysis of the deposited data

Results flagged for a closer look

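Ndrg1 was the listed gene whose change with TGF-β differed between cultures with and without SCF, by a test of the difference itself. The interaction was -1.92 ± 0.27 on the log2 scale (edgeR adjusted p = 0.00686, 10 libraries), and both libraries of SCF with TGF-β at each dose lay below both SCF libraries. It was not called without IL-3 replicate 1 (-1.90) or without the 1 ng/mL library of TGF-β alone (-1.68, which is the interaction at 10 ng/mL only). No group had the 4 libraries that a test for a library far from the others needs.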

How the results depend on the processing

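Of 37 results for listed genes past the threshold, 20 kept it in every fit, 17 lost it in at least 1 fit without 1 library, 6 of these also in another fit (6 with DESeq2, 2 with limma-voom, 1 with the 10 CPM filter and 1 without the TGF-β alone libraries), and none changed direction. Of 36 results for genes of the neighbouring lists, 7 kept it in every fit and none changed direction. For SCF against IL-3 (5 called), 9 were called without a filter, 11 with the replicate block, and 3 to 8 without 1 library. For 10 ng/mL TGF-β with SCF against SCF (8 called), 5 were called by DESeq2 and 4 to 8 without 1 library. For TGF-β alone against IL-3 (3 called), 7 were called without a filter, 8 with the replicate block, and 2 to 4 without 1 library. Leaving out 1 library gave 4 to 6 at 1 ng/mL with SCF (6 called), 9 to 16 for SCF with TGF-β over TGF-β alone (14 called) and 0 to 1 for the interaction (1 called). Of the genes each fit tested, SCF against IL-3 called 9.17% in the main fit, 4.72% without a filter and 13.2% with the block. For TGF-β alone against IL-3 these shares were 3.48%, 2.31% and 6.38%. At 10 ng/mL TGF-β with SCF, DESeq2 called 3.89% and the main fit 8.37%. In each of these comparisons, leaving out a library of a compared group also lowered the share called over all genes. The cause was not tested. With the block, 0 calls were lost, and 9 listed genes were called at 1 ng/mL TGF-β with SCF (Slc2a1 edgeR adjusted p = 0.000960), 11 at 10 ng/mL and 16 for SCF with TGF-β over TGF-β alone. Over all genes tested, the block called 7.64%, 12% and 29.2% in these comparisons, in that order. Calls made with the block and not in the main fit included Aldoa in SCF against IL-3 (0.33, adjusted p = 0.0364). For SCF with TGF-β over TGF-β alone they included Slc16a3 (0.74, 0.0418) and Pfkfb4 (-0.63, 0.0341). Statements above that a listed gene gave no call refer to the main fit. Replicate numbers are not said to mark shared cultures, so the main fit did not take them as pairs. Deviations of same-numbered libraries were nonetheless positively correlated between SCF groups, at 0.197 to 0.231, while their correlations with IL-3 were -0.003 to 0.022. Depth limits Mxi1, Egln1 and Pdk1, whose levels came near 3 reads in some libraries.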

Other observations

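In each SCF group, the library labelled replicate 1 was above replicate 2 for Slc2a1 and Aldoc, and so was the summed level of 9 immediate early genes. That sum was 3598 and 1932 CPM in SCF cultures, 3349 and 2053 CPM with 1 ng/mL TGF-β and 4164 and 2268 CPM with 10 ng/mL, and 4067 and 2907 CPM in IL-3. Aldoc was at 29.5 and 10.1 CPM in SCF cultures, 26.9 and 7.72 CPM with 1 ng/mL TGF-β and 21.0 and 5.43 CPM with 10 ng/mL. The order was not particular to these genes. Ddit4, Kdm3a and Pfkfb4 were among others with the same order in each SCF group. Gapdh, Ldha, Tpi1, Eno1 and Slc16a3 were among those with the reverse order. With TGF-β alone, the 1 ng/mL library was replicate 2 and the 10 ng/mL library replicate 1, so dose and replicate number cannot be told apart there.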
